A study of Mus musculus with 9 samples.

Results

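Retinoic acid, the hormone-like product of vitamin A, is made inside tissues by retinal dehydrogenases of the Aldh1a family, carried in the cytoplasm by the binding proteins Crabp1 and Crabp2, and destroyed by enzymes of the Cyp26 family. In the nucleus it binds retinoic acid receptors (RAR), which sit on DNA as pairs with retinoid X receptors (RXR) and switch on genes such as Rarb itself. In the embryonic forebrain and nose, retinoic acid from nearby mesenchyme and meninges is known to act on the growth and patterning of the olfactory bulb. The genes described here are 8 genes of these steps: Aldh1a1, Aldh1a2, Aldh1a3, Cyp26b1, Crabp1, Crabp2, Rarb and Rxrg. They were chosen by symbol, as the probe sets that carry 1 of these symbols and no other, which gave 10 probe sets of 45101 on the array.

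Levels of RNA were measured in whole dissected olfactory bulbs of CD1 mice, a stock of outbred laboratory mice, with 1 Affymetrix array per age and 1 animal per array. The ages were embryonic day 11 (E11), E12, E13, E14, E15, E16, E17, E18 and the day of birth (P0), 9 arrays in all, and all animals were untreated. No age had a replicate, so the error of each trend is the scatter of the 9 animals about it, and a reading at 1 age has no error of its own. The RNA was amplified in 2 rounds before labelling. Values are log2 expression levels, on which 1 unit is a factor of 2.

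The arrays had median levels between 4.08 and 4.23. By Xist and the Y-linked genes, the animals at E11, E12, E15 and P0 were female and the other 5 male. Markers of bulb neurons were present. The mitral and tufted cell factor Eomes read between 11.3 and 12.6 on the 9 arrays and the GABA-synthesising enzyme Gad1 at least 9.53, while Tbx21, a factor of mature mitral and tufted cells, rose and stood at 2.40 at E11, 4.15 at E12 and 9.28 at P0. The list of mitral and tufted cells did not move as one. Of its 8 genes tested, 5 rose, 1 fell (Tbr1) and 2 did not pass, where 25.2% of all genes rose and 21.9% fell. On a list of sensory neurons and nasal epithelium, 8 of 12 genes were under the filter, among them Omp, the marker of mature sensory neurons, at most 2.24. Of the other 4, the signalling genes Adcy3, Gnal and Gng13 rose and Ebf2 fell. Trends were tested with limma over 10864 genes with a level of log2 5 or higher on 2 arrays or more, with p-values adjusted by the Benjamini-Hochberg method over all of them and a threshold of 0.05. Of the 8 retinoid genes, 4 reached that level and were tested (Aldh1a1, Aldh1a2, Crabp1 and Crabp2). The other 4 (Aldh1a3, Cyp26b1, Rarb and Rxrg) were low on nearly all arrays and are described mainly by their readings. Their slopes are given only from an alternative fit without the filter (18193 genes), and rest on readings mostly under log2 5.

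Rarb is itself a known target of retinoic acid, through an element in its promoter made of a repeated core sequence with a spacer of 5 bases, the DR5 type. The stretch of promoter that holds it is shown for that reason, beside the promoter of Aldh1a2. Of the 8 genes, Aldh1a2 had the RNA course most like that of Rarb, whose readings were mostly under log2 5. The likeness was not particular to Rarb, as 222 of 2090 genes compared had Pearson r of 0.95 or more with Aldh1a2. Both stretches are the 100 bases before a transcript start listed by RefSeq on build GRCm38.p6, written 5′ to 3′ along the gene. For Aldh1a2 that is the start of the gene, and for Rarb it lies inside the gene. That of Rarb is chr14:16575477-16575576 on the minus strand and that of Aldh1a2 chr9:71215689-71215788 on the plus strand. The capitals mark the DR5 element.
Rarb: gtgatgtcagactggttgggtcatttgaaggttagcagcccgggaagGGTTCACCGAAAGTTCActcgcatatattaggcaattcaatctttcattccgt
Aldh1a2: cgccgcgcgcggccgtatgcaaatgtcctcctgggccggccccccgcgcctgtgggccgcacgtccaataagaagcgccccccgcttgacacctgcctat

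The Rarb element runs from base -53 to base -37, counted from that internal start, at chr14:16575513-16575529. With its repeated cores in capitals and the spacer in lower case it reads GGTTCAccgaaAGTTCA. Searched on both strands, the DR5 type was found in 0.0974% of the 32851 RefSeq promoter windows of this length (250 bases before to 50 after the start). Windows were listed for 6 of the 8 genes (8 windows), and the 1 match among them was that of Rarb. Each core was AGGTCA or AGTTCA, or either of these with G as its first letter, and the pair ran in the same direction. The related elements with a spacer of 1 base (DR1) or 2 bases (DR2) were in 0.222% and 0.268% of all windows and matched none of these 8 windows. A match describes letters and not a bound site, and which of the Rarb transcripts its probe set detects is not given in the sources used here.

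Of the 4 genes tested, the enzymes Aldh1a2 and Aldh1a1 rose with age, the carrier Crabp2 fell and the carrier Crabp1 did not pass. Of all genes tested, 25.2% rose and 21.9% fell. Aldh1a2, the main retinal dehydrogenase of the early embryo and later of the meninges, read 3.87 at E11, 3.94 at E12, 4.10 at E13, 5.58 at E14, 7.31 at E15, 8.51 at E16, 8.68 at E17, 8.60 at E18 and 9.56 at P0. The 3 earliest arrays were all under log2 5, the next 3 climbed in order, and the last 4 lay within about 1 unit of each other. It rose by 0.81 log2 units per day, with a standard error of 0.076 (n = 9 arrays; limma, adjusted p = 3.22e-05). Its P0 level was at least 23.6-fold that of E11, with readings under log2 5 counted as 5. In RNA of a whole bulb, more cells of a type and more RNA per cell cannot be told apart. Between arrays that both read above log2 5, the single steps were 1.73 log2 units for E15 minus E14 and 1.2 for E16 minus E15. Steps of at least 1 log2 unit upward were seen in 5.6% and 1.37% of genes on those same pairs of arrays.

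Aldh1a1, a retinal dehydrogenase that also handles other aldehydes and is known from dopaminergic neurons, came up on later arrays. It read 2.58 at E11, 2.45 at E12, 2.34 at E13, 2.35 at E14, 2.50 at E15, 3.98 at E16, 5.02 at E17, 6.18 at E18 and 7.0 at P0. The 5 arrays from E11 to E15 differed by less than 0.3 log2 units, and each later array was higher than the one before. It rose by 0.60 ± 0.099 log2 units per day (n = 9; adjusted p = 0.000867, limma), and its P0 level was at least 3.99-fold that of E11. Since 6 of its readings were under log2 5, the slope was 0.19 when those were set to 5 (adjusted p = 0.0225). The course was not straight, with a positive quadratic term (0.12 ± 0.022 per day squared, adjusted p = 0.0142) and a fitted low point at day 12.5, among readings that were all under log2 5. With readings under log2 5 set to 5, the term was 0.069 (adjusted p = 0.0308). Of all genes, 1.26% had such a fitted low point inside the course. This call of curvature ended without the E11 array (adjusted p = 0.0759), with P0 placed at day 20 (0.106) and over E13 to P0 (0.399).

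**Figure D1:**
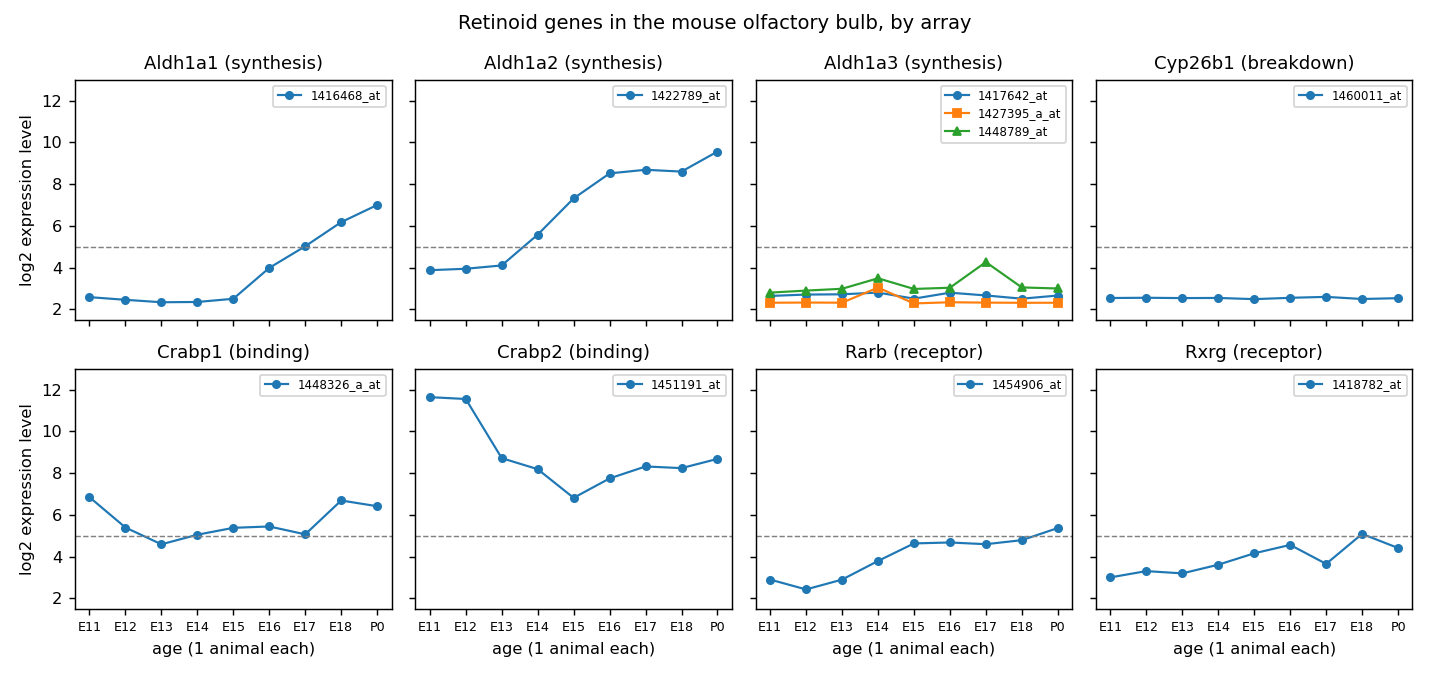
Log2 expression level (vertical axis) against age from E11 to P0 (horizontal axis, 1 animal and array each) for the 10 probe sets of the 8 retinoid genes, with a dashed line at the filter level of 5. Aldh1a2 passed the line at E14 and Aldh1a1 at E17, Crabp2 read 8.68 at P0, against 11.64 at E11, and the probe sets of Aldh1a3 and Cyp26b1 stayed under the line.

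Aldh1a3, the retinal dehydrogenase known from the olfactory epithelium and the lateral ganglionic eminence, was at the low end on all arrays and missed the filter. Its 3 probe sets read between 2.51 and 2.80, between 2.28 and 3.04, and between 2.80 and 4.26. In the probe set with the widest range, the E17 array read 4.26 and the E14 array 3.48, while the other 7 arrays read 2.80 to 3.05. The E17 reading was not matched by the other probe sets, which read 2.66 and 2.32 on that array. Aldh1a7, so close a relative of Aldh1a1 that their probe sets may not be fully separate, rose by 0.34 ± 0.087 log2 units per day (adjusted p = 0.00976, limma). Aldh1a7 read 3.66 at E11, 2.43 at E13, 5.87 at E17 and 5.23 at P0, so that its highest array was not the last one, as it was for Aldh1a1.

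On the same arrays, markers of meninges and mesenchyme rose as well. Of 17 such genes on the list, 15 were tested, 12 rose and 3 did not pass, and their median level was highest at P0 (9.97) and lowest at E12 (6.36). Several were already high at E11, such as the collagens Col3a1 (11.79) and Col1a2 (9.91), the matrix protein Lum (9.50), and the mesenchyme factors Prrx1 (9.50) and Tbx18 (7.78), of which Lum, Prrx1 and Tbx18 were those that did not pass. In contrast, Ogn, a matrix proteoglycan, and Slc6a13, a GABA transporter of the meninges, were under log2 5 from E11 to E13, at 5.95 and 6.09 at E14, and at 10.01 and 9.97 at P0. Alx1 and Twist1, factors of head mesenchyme, stayed under log2 5. The part of these cells in the Aldh1a2 trend was not tested. Other lists held rising genes too, where 25.2% of all genes rose. Of endothelium and mural cells 5 of 7 tested rose (median 9.20 at E16, against 6.92 at E12), of ensheathing glia 8 of 8 (8.94 at P0, against 3.46 at E11), of microglia and macrophages 5 of 5 (9.57 at E18, against 5.84 at E12), and of interneurons 8 of 9 (10.68 at P0, against 9.70 at E11). Of mitral and tufted cells 5 of 8 rose and 1 fell (median 11.93 at E16 and 11.14 at P0, against 8.76 at E11). Their part in the trends of Aldh1a2 and Aldh1a1 was not tested.

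The genes whose course was most like that of Aldh1a2 were Ddn, a protein of dendrites (Pearson r = 0.993 over 9 arrays), Sparcl1, a matrix protein of glia and vessels (0.993), and Apoe, a lipid carrier (0.991). These were the closest of 2090 genes that spanned at least 2 log2 units, of which 222 had r of 0.95 or more. For Aldh1a1 they were Sult1a1, a sulfotransferase (0.989), Ifitm1, an interferon-induced membrane protein (0.982), and Pla2g7, a phospholipase (0.979), and 27 genes had r of 0.95 or more. Sult1a1 read 2.84 at E11, 3.86 at E16 and 6.88 at P0. Such coefficients share the same 9 arrays and the same direction with age and are given as a description.

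The enzyme of breakdown was not measurable above the low end. Cyp26b1, which oxidises retinoic acid and is the main enzyme of its class in the developing head, read between 2.49 and 2.59 on the 9 arrays. This span of 0.11 log2 units was the narrowest of the 10 probe sets. Cyp26a1, its relative in the early embryo, read at most 2.68. Cyp26c1 was not analysed here. A probe set at this level gives no order between ages and does not show that the gene is silent.

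Of the binding proteins, Crabp2 was highest on the first arrays. Crabp2, the carrier that delivers retinoic acid to receptors in the nucleus, read 11.64 at E11, 11.55 at E12, 8.72 at E13, 8.19 at E14, 6.81 at E15, 7.74 at E16, 8.32 at E17, 8.24 at E18 and 8.68 at P0. The E11 and E12 arrays stood apart from the other 7, all of which were lower than 9, and the lowest array was E15. P0 was 7.78-fold lower than E11. The difference of E13 minus E12 was -2.83 log2 units, and 0.341% of all genes tested were lower by 2 units or more on that pair of arrays.

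The course of Crabp2 was not straight. The slope was -0.38 ± 0.14 log2 units per day (n = 9; adjusted p = 0.0496, limma), at the edge of the threshold, and 21.9% of all genes fell. Of 22 alternatives, 9 kept this call. It was lost without the E11 array (adjusted p = 0.252), without the E12 array (0.152), without those of E16, E17 or E18 (0.0714, 0.0730 and 0.0688), with the sex of the animals as a term (0.0875) and by exact rank correlation (0.293). Fitted over the arrays of E13 to P0, the slope was 0.053 (adjusted p = 0.742), of opposite sign. The curvature passed the test, with a quadratic term of 0.18 ± 0.032 (adjusted p = 0.0135), a fitted low point at day 16.1 and a fitted dip of -3.05 log2 units below the mean of the ends. That call kept its side of the threshold in 14 of 16 alternatives and was lost with sex as a term (adjusted p = 0.0607) and over E13 to P0 (0.277).

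Crabp1, the other cytoplasmic carrier, known from neural crest mesenchyme and some early neurons, had a shallower course. It read 6.84 at E11, 5.39 at E12, 4.59 at E13, 5.04 at E14, 5.37 at E15, 5.44 at E16, 5.06 at E17, 6.69 at E18 and 6.41 at P0. The highest arrays were thus at both ends (E11, E18 and P0), and the other 6 lay between 4.59 and 5.44. The slope was 0.058 ± 0.092 log2 units per day (adjusted p = 0.632, limma). Without the E11 array it was 0.21 (adjusted p = 0.0411), and over E13 to P0 it was 0.30 (0.0150). The quadratic term of 0.10 ± 0.027 missed the threshold (adjusted p = 0.0511, limma). It passed in 3 of 16 alternatives, after quantile normalization (0.0368), with readings under 5 set to 5 (0.0365) and without the P0 array (0.0494). Without the E11 array the term was 0.056 (adjusted p = 0.379), and over E13 to P0 it was 0.023 (0.888). With sex as a term and with P0 at day 20 it missed the threshold as well (0.200 and 0.118). The lowest array was E13 for Crabp1 and E15 for Crabp2, and the courses of these genes had r = 0.33 over the 9 arrays. At P0 Crabp1 was near its E11 level, while Crabp2 read 8.68, against 11.64 at E11.

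**Figure D2:**
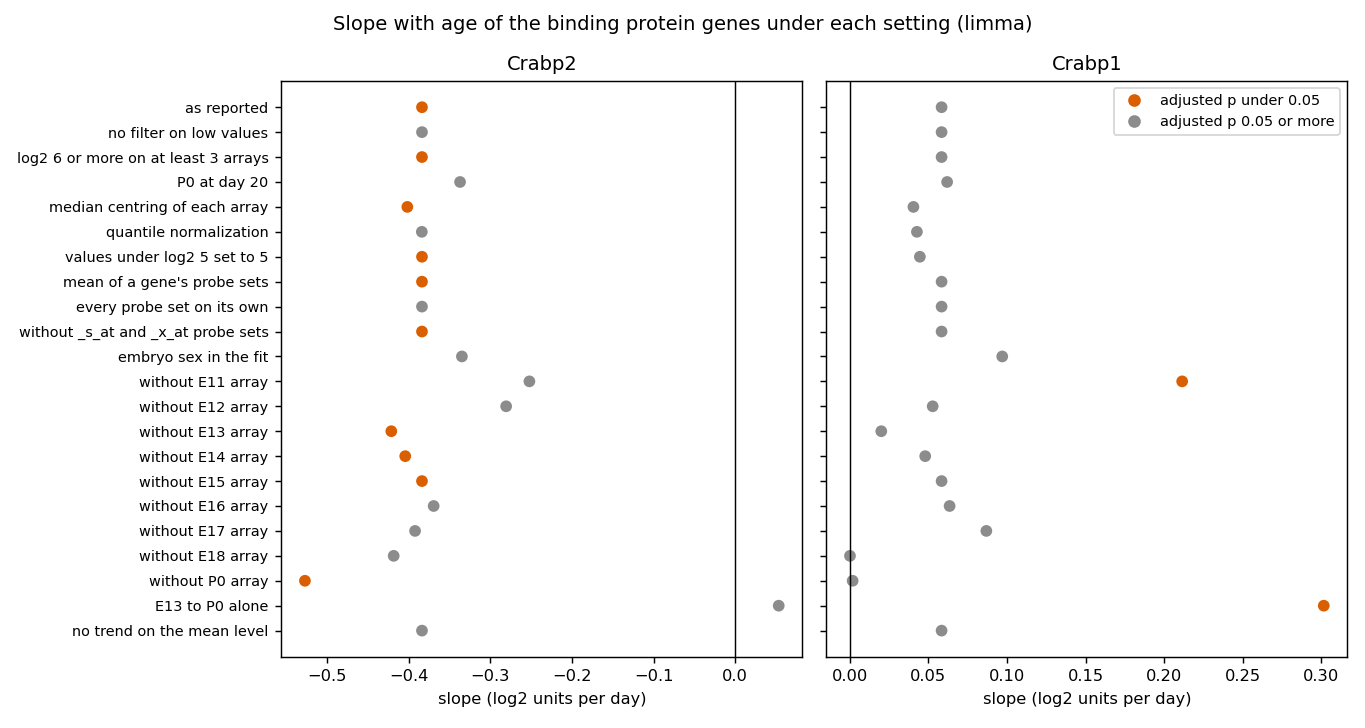
Slope with age in log2 units per day (horizontal axis) of Crabp2 (left) and Crabp1 (right) in the limma fit as reported (top row) and in each limma alternative, coloured by whether the adjusted p was under 0.05. The Crabp2 points lay between -0.53 and -0.25 except over E13 to P0 (0.053), and the Crabp1 call was gained without the E11 array (0.21) and over E13 to P0 (0.30).

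Some other markers were also highest on the first arrays. Epcam, an epithelial adhesion molecule, was among the 3 genes most like Crabp2 (r = 0.970 over 9 arrays) and read 6.60 at E11, 6.33 at E12, 3.90 at E13 and 3.95 at P0. The other 2 were Myo5b, a vesicle motor of epithelia (0.972), and Adamts7, a matrix protease (0.955). Of the 5 genes of the surface ectoderm list only Epcam was tested, and the keratins Krt8, Krt14 and Krt18 read at most 2.15, 2.25 and 3.06. The cadherin Cdh1 was under log2 5 on all arrays but P0 (5.83). The red cell list had a median of 13.72 at E11, 11.65 at E12, 8.04 at E13 and 2.96 at P0, and the list of radial glia and progenitors one of 12.20, 12.25, 11.19 and 10.80 at the same ages. Of 4 red cell genes tested, 3 fell and 1 (Alas2) did not pass. Of 10 genes of radial glia and progenitors, 8 fell and 2 (Fabp7 and Slc1a3) rose, where 21.9% of all genes fell and 25.2% rose. The part of these cells in the Crabp2 course was not tested. No gene had r of 0.95 or more with Crabp1. The nearest were Ndnf, a secreted neurotrophic protein (0.841), Grasp, a receptor scaffold (0.830), and Parm1 (0.827).

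The receptors Rarb and Rxrg read low on all arrays. Rarb, the receptor whose promoter is shown above, read 2.90 at E11, 2.42 at E12, 2.89 at E13, 3.79 at E14, 4.63 at E15, 4.67 at E16, 4.59 at E17, 4.78 at E18 and 5.36 at P0. The first 3 arrays were all lower than the other 6, and P0 was the 1 array above log2 5. Rarb therefore missed the filter. In the fit without a filter it rose by 0.35 ± 0.047 log2 units per day (adjusted p = 0.000763 over 18193 genes, limma), where 14.7% of all genes rose and 12.3% fell. Its course over the 9 arrays was like that of Aldh1a2 (r = 0.973), a description that rests on readings under log2 5 on 8 of the 9 Rarb arrays. Such a likeness was not particular to Rarb. Of 2090 tested genes that spanned at least 2 log2 units, 222 had r of 0.95 or more with Aldh1a2.

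Rxrg, the retinoid X receptor known from the striatum, pituitary and muscle, read 3.0 at E11, 3.30 at E12, 3.19 at E13, 3.61 at E14, 4.15 at E15, 4.56 at E16, 3.65 at E17, 5.08 at E18 and 4.41 at P0. The later arrays were mostly higher, but the E17 array lay below those of E15 and E16, and E18 was the 1 array above log2 5. Without a filter Rxrg rose by 0.21 ± 0.049 log2 units per day (adjusted p = 0.0104, limma). Of the 8 genes, 4 rose in that fit (Aldh1a1, Aldh1a2, Rarb and Rxrg) and 0 fell by limma, where 14.7% of all genes rose and 12.3% fell. The slope of Crabp2 there was negative, at an unadjusted p of 0.0326 (limma). Aldh1a3 had a slope of 0.056 ± 0.052 there (adjusted p = 0.534) and Cyp26b1 one of -0.0014 ± 0.0048 (0.876). The rises of Rarb and Rxrg rest mostly on readings under log2 5. With those counted as 5, P0 over E11 was 1.29-fold for Rarb and 1-fold for Rxrg. Of 13 genes on a list of striatal and lateral ganglionic eminence neurons, 7 were tested, of which 2 rose, 2 fell and 3 did not pass. With the filter, 25.2% of all genes rose and 21.9% fell. The neuropeptide genes Penk (8.67 at P0, against 3.16 at E11) and Tac1 (9.53 at P0, against 7.56 at E11) rose. Ebf1 (6.94 at P0, against 8.14 at E11) and Isl1 (2.34 at P0, against 10.14 at E11) fell. The factor Foxp2, which did not pass, read between 9.23 and 10.15. Under the filter were the dopamine receptors Drd1 and Drd2, at most 4.25 and 2.18, and Ppp1r1b, a striatal signalling protein, at most 5.01. The part of such cells in the Rxrg readings was not tested.

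**Figure D3:**
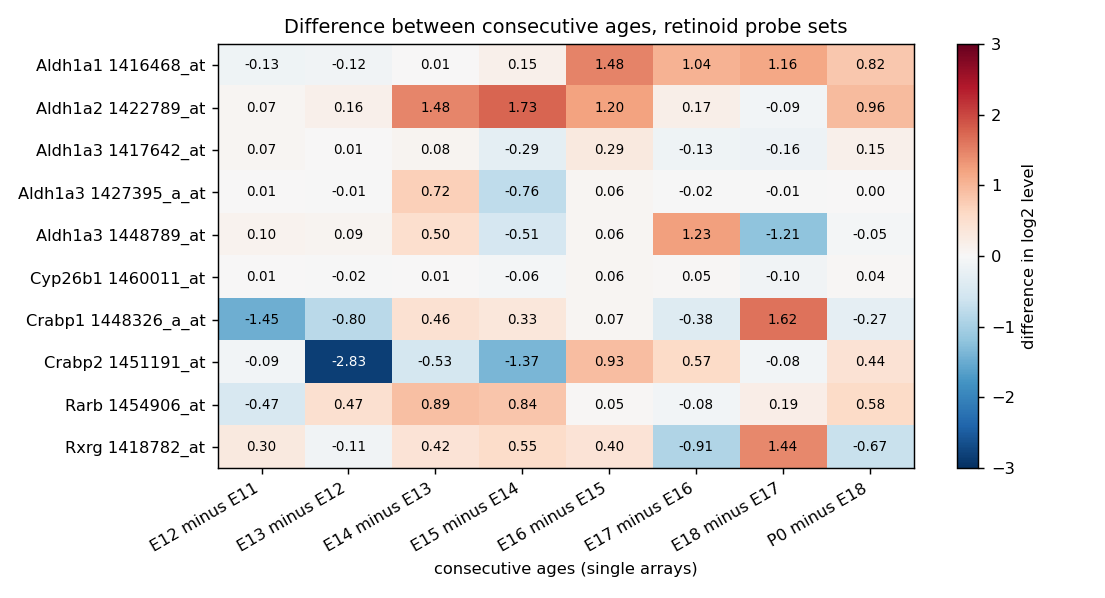
Difference in log2 level between consecutive ages (columns, later minus earlier, single arrays) for the 10 probe sets (rows), red for higher and blue for lower at the later age. The largest negative step was that of Crabp2 for E13 minus E12 (-2.83), and the largest positive one that of Aldh1a2 for E15 minus E14 (1.73).

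The other receptors of the family went the other way or were low. Rxra, the most widely used partner of nuclear receptors, fell (slope -0.17 ± 0.039, adjusted p = 0.00482), with readings of 8.09 at E11, 8.36 at E12 and 6.89 at P0. Rxrb fell as well, with a slope of -0.073 ± 0.018 (adjusted p = 0.00788). Rara read at most 2.38 and Rarg at most 4.53, so that neither was tested.

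The rest of the pathway was read from a list of 63 further names, of which 55 had a probe set and 31 were tested. Of these 31, 14 rose (45.2%), 7 fell (22.6%) and 10 did not pass, where 25.2% and 21.9% of all genes rose and fell. The median slope was 0.091 log2 units per day on the list and 0.0020 over all genes. Over E13 to P0, 7 of the 31 rose and 3 fell, where 1525 of all 10864 genes rose and 1219 fell. Without the E11 array 4 of the 31 fell, against 1803 of all genes. Of the 24 genes under the filter, 20 read below 3 on all arrays and probe sets.

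Among carriers of retinol, Ttr, the transport protein that binds the plasma retinol carrier and is made in the choroid plexus, rose by 0.62 ± 0.078 log2 units per day (adjusted p = 0.000179). Its readings were 4.13 at E11, 7.08 at E16 and 8.86 at P0. Rbp4, that plasma carrier, and Lrat, which stores retinol as esters, read at most 2.10 and 2.57, and Stra6, the membrane receptor that takes retinol up, at most 4.07. Rlbp1, a retinal-binding protein of glia in the eye, did not pass the test of the slope (0.14 ± 0.076, adjusted p = 0.144). It read 9.04 or more from E12 on, against 7.41 at E11, with a fitted peak at day 15.8 (adjusted p of the quadratic term 0.0333). A peak inside the course was called for 4.96% of genes.

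Of 7 tested enzymes that turn retinol into retinal or back, 2 rose (28.6%), 1 fell (14.3%) and 4 did not pass. The rising share was near the 25.2% of all genes, of which 21.9% fell. Rdh10, the enzyme of this step that embryos depend on, did not pass (0.069 ± 0.037, adjusted p = 0.152), with readings between 7.78 and 8.90. Rdh11 (0.11 ± 0.023, adjusted p = 0.00370) and Rdh14 (0.12 ± 0.024, adjusted p = 0.00279) rose, although the slopes of the 3 Rdh14 probe sets ran between -0.0013 and 0.12. Dhrs3, which turns retinal back into retinol and is known to be induced by retinoic acid, did not pass (0.11 ± 0.045, adjusted p = 0.0589), with 5.68 at P0, against 4.65 at E11. Adh5, a general alcohol dehydrogenase, fell with a slope of -0.070 ± 0.018 (adjusted p = 0.00806). Fabp5, a fatty acid carrier that can also bind retinoic acid, stayed between 14.08 and 14.46 without a call (adjusted p = 0.615).

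Of 6 coregulators tested, 4 rose, 1 fell and 1 did not pass, where 25.2% of all genes rose and 21.9% fell. Ncoa1, Ncoa2 and Ncoa3, which link bound receptors to chromatin enzymes, rose with slopes of 0.10, 0.12 and 0.080 (adjusted p = 0.0340, 0.00613 and 0.0417). Other Ncoa2 probe sets above the filter had slopes of 0.042 and 0.065 and did not pass (adjusted p = 0.307 and 0.302 over all probe sets, limma). Nrip1, a repressor that receptors recruit when hormone is bound, rose by 0.15 ± 0.044 (adjusted p = 0.0164), and its probe sets that passed the filter had slopes from -0.11 to 0.15. The acetyltransferase Ep300 fell (-0.071, adjusted p = 0.0435) and its relative Crebbp did not pass (-0.039, adjusted p = 0.235).

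Of genes known to respond to retinoic acid in other settings, 11 were tested, of which 6 rose, 2 fell and 3 did not pass. Of all genes, 25.2% rose and 21.9% fell. Tgm2, a transglutaminase and a classic target in cultured cells, rose by 0.27 ± 0.024 (adjusted p = 2.91e-05), to 8.85 at P0, against 7.02 at E11. The orphan receptors Nr2f1 (0.31 ± 0.050) and Nr2f2 (0.36 ± 0.067), the homeobox factors Meis1 (0.27 ± 0.067) and Meis2 (0.21 ± 0.030), and Rarres2, which encodes the chemoattractant chemerin (0.24 ± 0.049), rose too. Isl1 (-0.88 ± 0.14) and Rai14 (-0.20 ± 0.033) fell, and Nav2, Rai1 and Rai2 did not pass. Meis2 and Isl1 also stand on the marker lists of interneurons and of striatal neurons. These genes have many other inputs, and their part in a response to retinoic acid was not tested.

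**Figure D4:**
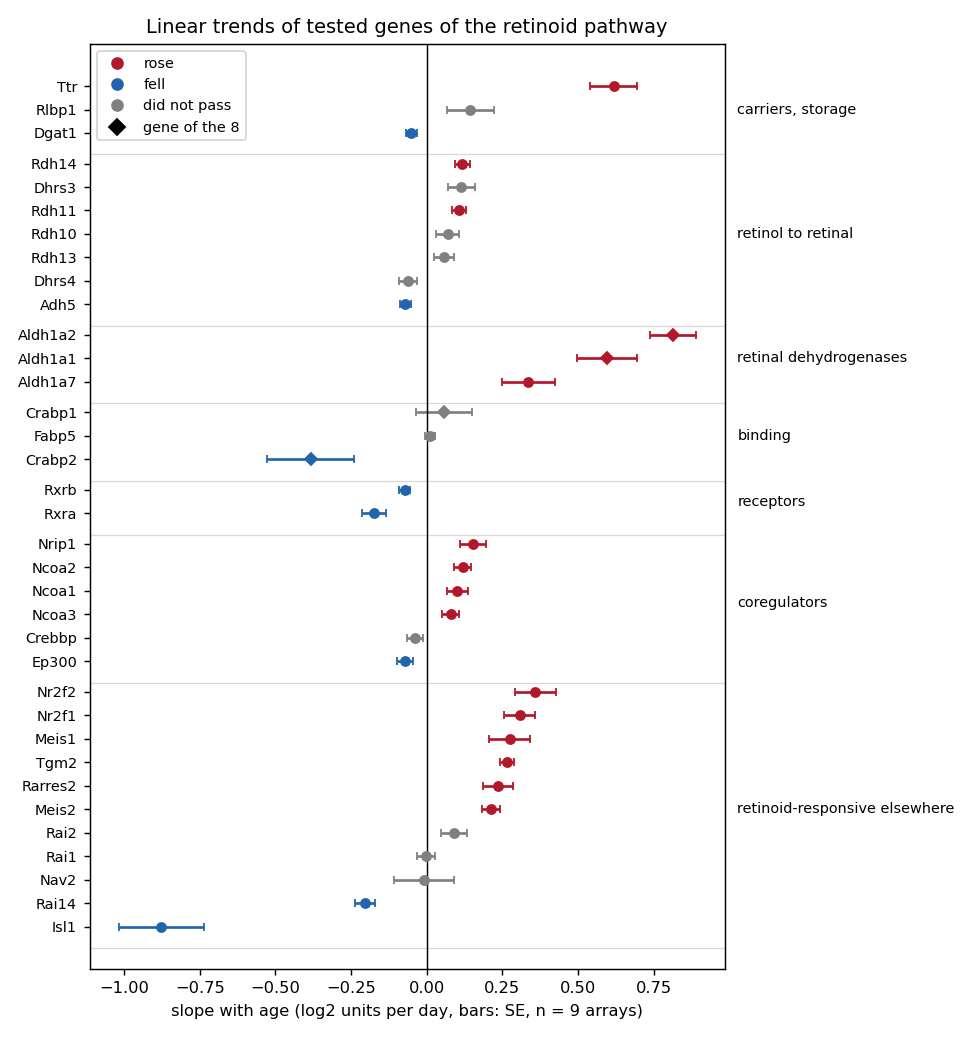
Slope with age in log2 units per day (horizontal axis, bars are the standard error, n = 9 arrays) of the 35 tested genes of the retinoid pathway, grouped by role (right labels), red for genes that rose, blue for genes that fell and grey for genes that did not pass. Diamonds are genes of the 8; Aldh1a2 had the largest rising slope (0.81) and Isl1 the steepest falling one (-0.88).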

How the data were processed

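RNA from the bulb of 1 CD1 mouse per age was amplified and read on 1 Affymetrix mouse array, per the labels' protocols. The deposited values are log2 levels per probe set that the authors made with GCRMA, per the submitters' processing notes (version not given in the sources used here). No label states the scale, and log2 was taken from the values' range and the method. Genes were named from the platform annotation (34945 probe sets with 1 symbol, controls left out), and all 8 members matched a RefSeq gene by Entrez ID.

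For each gene the probe set with the highest mean was used. Slopes were fitted with limma 3.58.1 in R 4.3.3 (variance trend, two-sided, 7 residual degrees of freedom), with E11 to E18 as days 11 to 18 and P0 as day 19. Curvature was tested as the quadratic term of age, and a peak or dip called where its turning point lay between days 12 and 18. The number of arrays limits the precision. Fits were tested on simulated data.

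The members, lists and tests were chosen with earlier results of these data known. Named genes were the 8 members, genes of the pathway and marker lists, and for each tested member the 3 most correlated genes, clone names left out. Adjusted p-values cover all genes tested. Alternatives concerned the filter, scaling, probe sets, day of P0, test, sex and arrays. Of the pathway list, 8 names were not analysed here.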

Additional observations from a re-analysis of the deposited data

How the results depend on the processing

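Aldh1a2 rose in all 22 alternatives and Aldh1a1 in all 21 that tested it, with slopes of 0.77 to 0.86 and 0.51 to 0.72 when 1 array was left out; Aldh1a1 was not tested under the stricter filter. The Crabp2 slope lost its call without a filter (-0.38, adjusted p = 0.0995), with P0 at day 20 (-0.34), after quantile normalization (-0.38), with every probe set fitted on its own (-0.38), without the variance trend (-0.38), with embryo sex in the fit (-0.33) and by exact rank correlation (rho = -0.48), reversed from E13 to P0 alone (0.053), and lay between -0.53 and -0.25 with 1 array left out. Under those same settings 0 members fell by limma or rank correlation, as without the E11, E12, E16, E17 or E18 array, against 1 otherwise. The Crabp1 slope gained a call from E13 to P0 alone (0.30) and without the E11 array (0.21). It ranged from 0.00017 to 0.21 with 1 array left out. With 1 array left out the quadratic term of Aldh1a1 was 0.11 to 0.15. It lost its call with P0 at day 20 (0.070), without the E11 array (0.12) and from E13 to P0 alone (0.097). That of Crabp2 lost it with embryo sex in the fit (0.19) and from E13 to P0 alone (0.13), and was 0.15 to 0.22 with 1 array left out. That of Crabp1 gained one after quantile normalization (0.11), with values under 5 set to 5 (0.097) and without the P0 array (0.14). It was 0.056 to 0.14 with 1 array left out. That of Aldh1a2, which had no call (-0.026), turned sign with values under 5 set to 5 (0.0082).

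Members that rose numbered 4 without a filter and 1 at log2 6 or more on at least 3 arrays. On the pathway list without the members, 7 rose and 3 fell from E13 to P0 alone, and with 1 array left out 11 to 14 rose and 4 to 6 fell. Over all genes, 1525 rose and 1219 fell from E13 to P0 alone, and with 1 array left out 2218 to 2764 rose and 1803 to 2335 fell. With every probe set on its own 4089 fell. The cause of these differences was not tested, except that fewer arrays and other numbers of genes enter some fits. No paired analysis was possible because each age had 1 animal. Readings under log2 5 limit Aldh1a3, Cyp26b1, Rarb and Rxrg, where a level near background gives only a bound.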

Other observations

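Probe sets of single pathway genes did not always follow one course. For Nrip1, 1 probe set read 4.0 at E11, 4.06 at E16 and 4.20 at E18 and between 7.30 and 8.15 on the other 6 arrays, while the probe set used in the fit stayed between 9.30 and 10.83. For Nav2, a cytoskeletal protein first described as a retinoic acid-induced gene of neuroblastoma cells, the probe set used in the fit read 6.38 at E11, 8.77 at E16 and 6.78 at P0, with a fitted peak at day 15.0 (adjusted p of the quadratic term 0.00707, limma). Another read 8.47 at P0, against 4.0 at E11, and rose by 0.52 ± 0.10 log2 units per day (adjusted p = 0.00272 over all probe sets, limma).

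Nr2f1 and Nr2f2 also had called peaks late in the course (turning points at day 17.8 and 17.4, adjusted p of the quadratic terms 0.0473 and 0.0424, limma). Nr2f1 read 10.71 at P0, against 11.14 at E17, and Nr2f2 read 9.07 at P0, against 9.73 at E16. The coregulators Ncoa2 and Nrip1 had called peaks too, at day 16.9 and 16.5 (adjusted p of the quadratic terms 0.0375 and 0.0391, limma). A peak inside the course was called for 4.96% of all genes.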
